A study of Mus musculus with 10 samples.

Results

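The Egr zinc fingers and the Nab corepressors were followed through all probe sets that the platform annotation gives to Egr1, Egr2, Egr3, Egr4, Nab1 and Nab2. These 6 genes, of 18193 with a probe set of their own, had 10 of the 45037 probe sets that are no controls. Egr2 and Egr3 had 2 probe sets each, Nab1 had 3, and Egr1, Egr4 and Nab2 had 1. Tests were run on the brighter 60% of probe sets by mean signal over the 10 arrays, 27022 in number. Of the 10 members 9 were among them. The Nab1 probe set 1438819_at was not, and its values are given without a test.

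Each array held hippocampal RNA pooled from 3 to 4 mice that were 3 weeks old. The 5 groups had 2 arrays each, numbered 1 and 2 in the labels: wild-type mice (strain label C57BL6 F1/J) given saline, wild-type mice given 14 mg/kg kainate, and TetO-A-CREB-95 mice on the same strain given saline, 14 mg/kg kainate or 18 mg/kg kainate. Of the wild-type arrays, 2 carry no strain label, and their genotype was taken from their titles. A-CREB is a dominant-negative protein that blocks DNA binding by CREB, a transcription factor that responds to cAMP and calcium. Kainate is a glutamate receptor agonist that provokes seizures. The labels name the TetO transgene line, while the transactivator that drives it, the cells it is active in and the interval between injection and dissection were not given in the sources used here. No wild-type group received 18 mg/kg. The pools used 14 wild-type and 20 A-CREB mice. The spread behind each error and p-value is that between the 2 pools of a group, taken over all groups, not that of single mice. In such bulk RNA, fewer cells that express a gene and less RNA per cell cannot be told apart.

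The Egr genes encode zinc-finger transcription factors that bind GC-rich sites. They are immediate-early genes: synaptic activity and seizures switch them on in neurons without new protein synthesis, through serum response factor with its ternary complex partners and, in part, through CREB. Nab1 and Nab2 are corepressors that bind an inhibitory domain of Egr1, Egr2 and Egr3, which Egr4 lacks, and Nab2 is itself known as an Egr target that closes a negative feedback loop. Egr1 is the family member used most as a marker of active hippocampal neurons, Egr2 is known also for its part in myelination by Schwann cells, and Egr3 is an Egr1-related factor that lasts longer after a stimulus.

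All 8 marker genes of hippocampal principal neurons were bright enough to be tested, as were those with a probe set for the other tissues and cell types given here except Schwann cells, so this count does not set the tissue apart. The summed signal of the 8 lay between 10149 and 14477. In A-CREB mice that sum was 14381 and 14477 on the saline arrays and lower, at 10149 to 13307, on the kainate arrays. In wild type the groups overlapped. Among the A-CREB kainate arrays, 18 mg/kg replicate 1, the lowest in Egr2, had a sum of 11203. Replicate 2 at that dose, the highest in Egr2, had 12157. The sum of 5 microglial markers was 8515 to 10154 in wild type and 9758 to 13363 in A-CREB mice, and that of 4 astrocyte markers 10669 to 14462 and 12765 to 18172. The summed signal of 4 striatal markers was 5201 on the array wild-type kainate replicate 2 and between 1037 and 2530 on the other 9 arrays. That of 6 choroid plexus markers lay between 24136 and 43581, with Ttr alone at 21939 to 38808. Schwann cells were judged by Pmp2 alone, the 1 of 3 listed markers with a probe set of its own, at signals of 3.71 to 61.6. The median signal was 94.9 to 106 on the 5 arrays numbered 1 and 135 to 152 on the 5 numbered 2, although every array had been scaled to the same mean. The part of these differences in the results was not tested.

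RefSeq promoter windows (build GRCm38.p6, 250 bases before to 50 after a gene's start) were given for 4 of the 6 genes: Egr2 with 5 starts, Egr4, Nab1 and Nab2. One window each of Egr2, Egr4 and Nab1, each with motif matches, is shown from 250 bases before the start up to it, 5′ to 3′ on the gene's strand. For Egr2 that of start 3 is shown, since it holds all the matches of its overlapping neighbours. They are shown because the transgene blocks CREB, and its element was among the letters searched. Capitals mark matches on either strand to GCGNGGGCG (an Egr site), TGACG (the core of the cAMP response element TGACGTCA) or the CArG box, which serum response factor binds. The lines give Egr2 at start 3 of its 5 (chr10:67537619-67537868, plus strand), Egr4 (chr6:85513590-85513839, minus strand) and Nab1 (chr1:52500449-52500698, minus strand).
Egr2: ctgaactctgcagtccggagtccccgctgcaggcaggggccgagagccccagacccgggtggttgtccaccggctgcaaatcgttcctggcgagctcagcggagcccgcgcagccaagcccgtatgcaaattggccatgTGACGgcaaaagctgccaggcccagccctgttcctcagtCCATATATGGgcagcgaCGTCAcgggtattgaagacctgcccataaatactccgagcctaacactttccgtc
Egr4: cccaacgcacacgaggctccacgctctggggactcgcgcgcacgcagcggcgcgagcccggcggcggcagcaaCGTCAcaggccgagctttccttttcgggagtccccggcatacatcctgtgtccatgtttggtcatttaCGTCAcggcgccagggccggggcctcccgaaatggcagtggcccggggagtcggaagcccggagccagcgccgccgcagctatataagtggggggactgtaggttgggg
Nab1: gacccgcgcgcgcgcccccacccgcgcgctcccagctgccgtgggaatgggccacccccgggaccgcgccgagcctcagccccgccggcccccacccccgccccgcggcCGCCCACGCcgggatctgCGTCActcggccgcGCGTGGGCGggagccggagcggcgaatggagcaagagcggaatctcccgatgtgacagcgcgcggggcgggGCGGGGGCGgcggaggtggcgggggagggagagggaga

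In the Egr2 window a CArG box lay 72 to 63 bases before the start, between a TGACG core 111 to 107 bases before it and another 55 to 51 bases before it. The window of the second Egr2 start, not printed, held 1 CArG box of its own, and that of the first start held no match. The windows of the fourth and the fifth starts overlap that of start 3 and hold the same matches. The Egr4 window held 2 TGACG cores, 177 to 173 and 109 to 105 bases before the start. The Nab1 window held 3 Egr sites, the nearest 38 to 30 bases before the start, and 1 TGACG core. The Nab2 window held none of the motifs, and the full TGACGTCA was in no member window. Of the 32851 windows of 300 bases in the table, 5.55% held an Egr site, 20.8% a TGACG core, 1.79% the full TGACGTCA and 1.63% a CArG box. Cores are counted also where they stand in a full element. A match describes letters and is not a measured binding site.

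**Figure D1:**
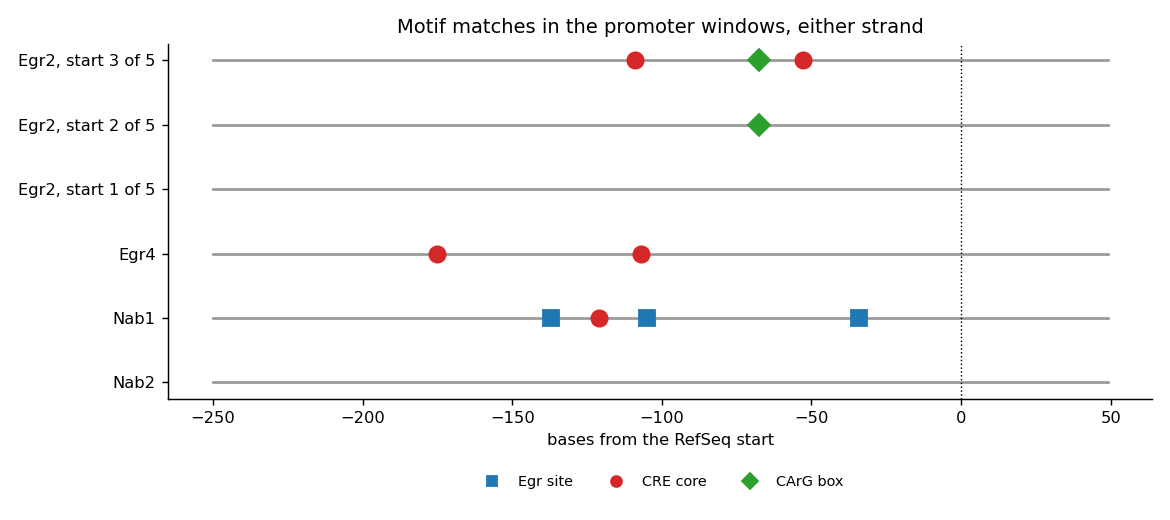
Positions of the motif matches in the promoter windows, in bases from the RefSeq start at 0 (dotted line), for the first 3 of the 5 Egr2 starts, Egr4, Nab1 and Nab2. Squares are Egr sites, circles cores of the cAMP response element and diamonds CArG boxes. The 3 Egr sites lie in the Nab1 window.

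All 6 Egr probe sets were brighter on every one of the 6 kainate arrays than on any of the 4 saline arrays, while the Nab probe sets overlapped. Of all 27022 probe sets tested, 1.58% showed that separation upwards. For separations between 2 single groups, given below, the share over all probe sets was not counted. With 2 arrays a group they describe the arrays only. The signals given are MAS5 signals on a linear scale, which hold no common unit between probe sets, so those of members are compared between arrays within a probe set. The marker sums above add several probe sets, and the brightest weigh most in them. Changes are differences of log2(signal + 22) with their standard error (SE), from limma fitted over all 10 arrays and 27022 probe sets, and a change is called where its Benjamini-Hochberg adjusted p is below 0.05. Same-numbered arrays of different groups deviated together, so the values with the replicate number as a block are given as well.

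**Figure D2:**
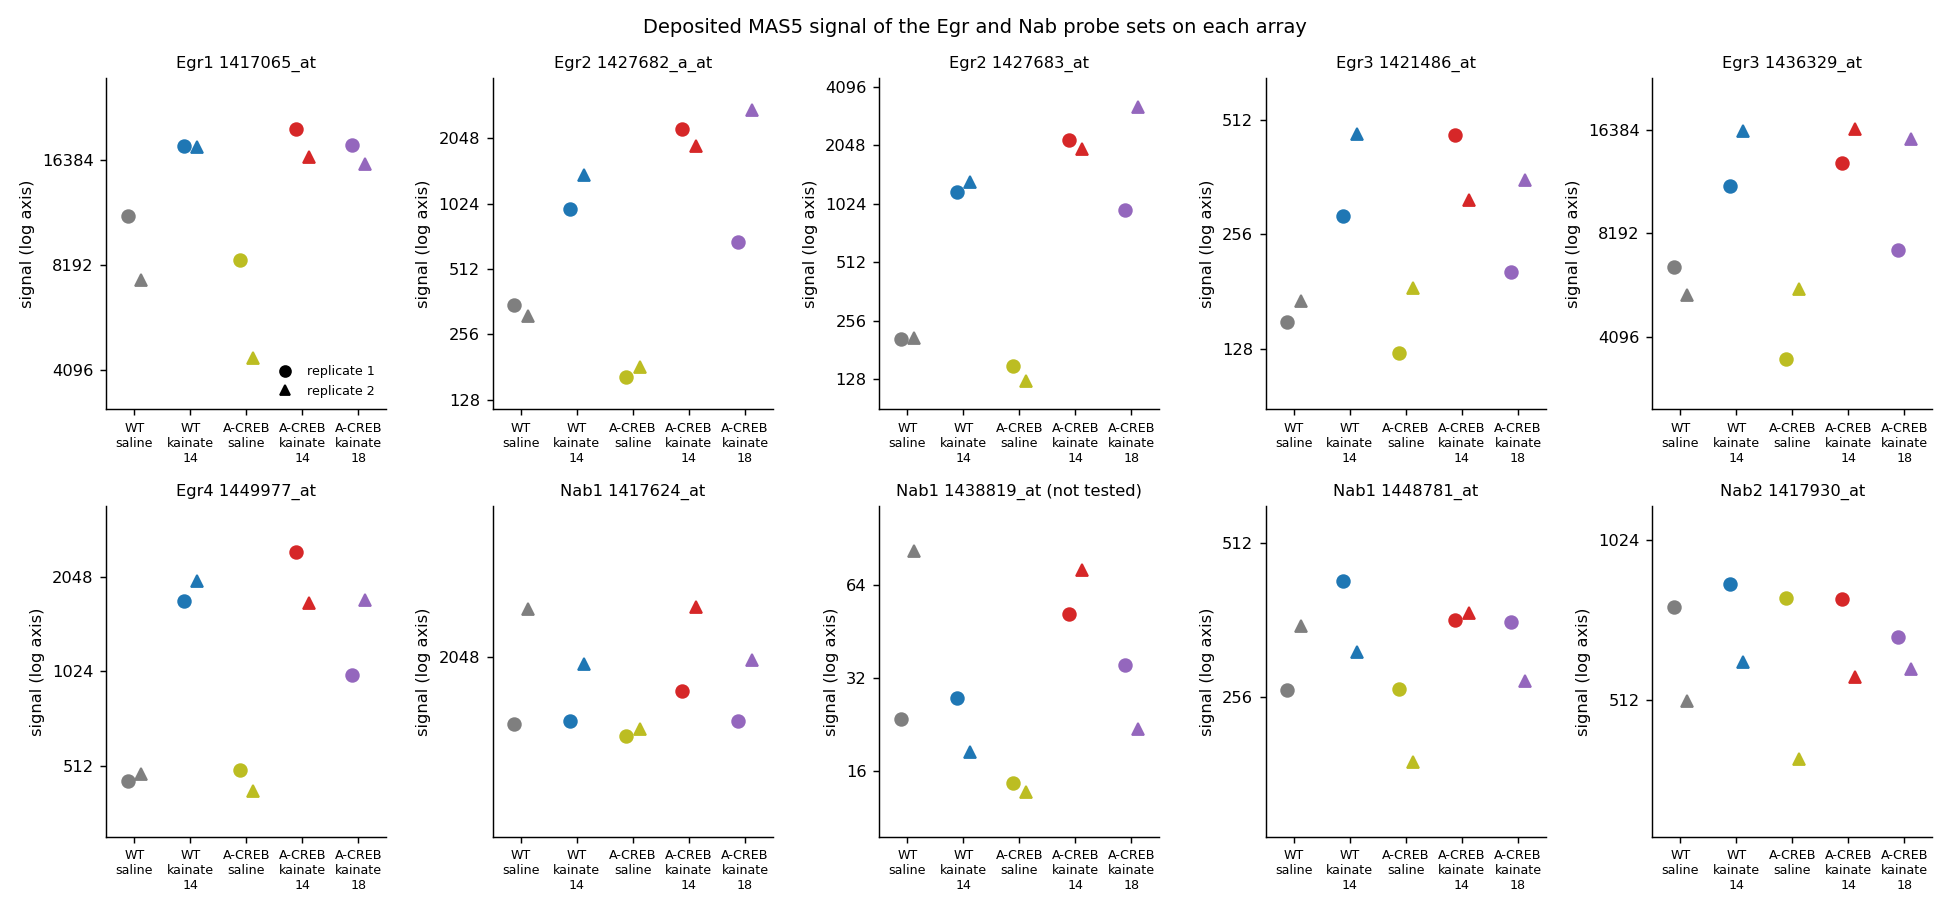
MAS5 signal (log axis) of the 10 probe sets on each array, by group, with circles for replicate 1 and triangles for replicate 2. In the 6 Egr panels the kainate arrays lie above the saline arrays, and in the Egr2, Egr3 and Egr4 panels replicate 1 of A-CREB kainate 18 mg/kg is the lowest kainate array.

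Egr1 (1417065_at) had signals of 11329 and 7441 in wild-type saline and of 18009 and 17864 after 14 mg/kg. In A-CREB mice it had 8501 and 4429 after saline, 20143 and 16787 after 14 mg/kg, and 18198 and 16006 after 18 mg/kg. The kainate arrays of both genotypes lay within 1 band that began at 16006, and both saline groups, which overlapped, lay below it. The log2 difference between kainate and saline was 0.96 (SE 0.296) in wild type, 1.58 in A-CREB at 14 mg/kg and 1.47 at 18 mg/kg. The adjusted p-values of limma were 1, 0.133 and 0.267, and none was called. With the replicate block they were 0.0626, 0.00153 and 0.00429, so that Egr1 was called in both A-CREB comparisons. In 5 of 5 groups Egr1 was higher on the array numbered 1.

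Egr2, the member with the largest changes, was represented by 1427683_at, the brighter of its probe sets on average. Its signals were 205 and 209 in wild-type saline and 1174 and 1319 after 14 mg/kg. In A-CREB mice they were 149 and 126 after saline, 2175 and 1950.4 after 14 mg/kg, and 952 and 3222 after 18 mg/kg. Saline arrays of the genotypes did not overlap, with A-CREB lower, and neither did the 14 mg/kg arrays, with A-CREB higher. How many of all probe sets showed such separations was not counted, so this describes the arrays only. Neither genotype difference was called in either fit. The change was 2.47 (SE 0.438) in wild type, with an adjusted p of 0.18 by limma, or 0.0144 with the replicate block. It was 3.71 in A-CREB at 14 mg/kg (adjusted p = 0.0161 by limma) and 3.48 at 18 mg/kg (adjusted p = 0.0353), both called. The SE rests on 1 spread shared by the 5 groups, not on that of wild type alone. The log2 standard deviation between the 2 arrays was 0.018 in wild-type saline and 0.116 in wild-type kainate. In A-CREB mice it was 0.148 after saline, 0.110 after 14 mg/kg and 1.227 after 18 mg/kg.

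The other Egr2 probe set, 1427682_a_at, correlated with the first at r = 0.983 over the 10 arrays, which share their groups. It had signals of 351 and 309.951 in wild-type saline and of 963 and 1392 after kainate. In A-CREB mice it had 163 and 181, then 2266 and 1886 after 14 mg/kg, and 682 and 2762 after 18 mg/kg. It showed the same order of groups without overlap at saline and at 14 mg/kg, and here too neither genotype difference was called. Its change was 1.75 (SE 0.505) in wild type, 3.43 in A-CREB at 14 mg/kg and 2.86 at 18 mg/kg. Of these limma called the 14 mg/kg change in A-CREB (adjusted p = 0.0406), and with the block also that at 18 mg/kg (adjusted p = 0.00942).

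Egr3 was represented by 1436329_at. Its signals were 6552 and 5408 in wild-type saline and 11249.9 and 16275 after kainate. In A-CREB mice they were 3537 and 5622 after saline, 13116 and 16480.4 after 14 mg/kg, and 7343 and 15349.9 after 18 mg/kg. Saline groups overlapped, as did the 3 kainate groups. The change was 1.18 (SE 0.353) in wild type, 1.72 in A-CREB at 14 mg/kg and 1.25 at 18 mg/kg, with adjusted p-values by limma of 1, 0.198 and 0.985. With the replicate block these were 0.068, 0.00377 and 0.0479. The dimmer Egr3 probe set, 1421486_at, lay between 125 and 185 on the saline arrays and between 204 and 469 on the kainate arrays. Its changes of 1.09, 1.21 and 0.74 were called in neither fit, and the smallest adjusted p with the block was 0.12.

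Egr4 (1449977_at) had signals of 459.864 and 484 in wild-type saline and of 1712 and 1984 after 14 mg/kg. In A-CREB mice it had 498 and 427 after saline, 2455 and 1691 after 14 mg/kg, and 999 and 1732.5 after 18 mg/kg. The 4 saline arrays formed a narrow band at 427 to 498, and every kainate array reached at least 999. The change was 1.92 (SE 0.277) in wild type, with an adjusted p of 0.0694 by limma, or 0.00543 with the block. In A-CREB mice it was 2.09 at 14 mg/kg, which was called (adjusted p = 0.0255 by limma), and 1.47 at 18 mg/kg, which was called with the block only (adjusted p = 0.199 without it and 0.0283 with it).

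Nab1, a corepressor expressed in many tissues, was represented by 1417624_at. Its signals were 1638 and 2404 in wild-type saline and 1655 and 1999 after kainate. In A-CREB mice they were 1576 and 1611 after saline, 1828 and 2419 after 14 mg/kg, and 1655 and 2027 after 18 mg/kg. The wild-type groups overlapped, and A-CREB saline lay below every array of the other groups, wild-type saline among them. The changes were -0.12 (SE 0.232), 0.40 and 0.20, none called in either fit. Intervals (95%) were -0.65 to 0.40 in wild type and -0.13 to 0.92 in A-CREB at 14 mg/kg. With the replicate block the A-CREB interval was 0.07 to 0.72, which leaves out 0 (unadjusted p = 0.0224 and adjusted p = 0.42 by limma). In 5 of 5 groups it was lower on the array numbered 1.

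The second Nab1 probe set, 1448781_at, had 265 and 352 in wild-type saline, 433 and 313 after kainate, 266 and 191 in A-CREB saline, 362 and 374 after 14 mg/kg, and 359 and 276 after 18 mg/kg. Its changes were 0.25 in wild type, 0.66 in A-CREB at 14 mg/kg and 0.44 at 18 mg/kg, none called. The A-CREB saline arrays did not overlap with those of either kainate dose. At 14 mg/kg the 95% interval of this Nab1 change was 0.05 to 1.26, or 0.14 to 1.17 with the block, with unadjusted p-values of 0.0369 and 0.0166 and adjusted p-values of 1 and 0.379 by limma. The 2 Nab1 probe sets correlated at r = 0.37 over the 10 arrays. The untested probe set 1438819_at lay between 13.7 and 82.4 on all arrays, near the pseudocount.

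Nab2 (1417930_at), the corepressor that is inducible in other systems, had signals of 766 and 511 in wild-type saline and of 845 and 603 after kainate. In A-CREB mice it had 798 and 398 after saline, 792 and 565 after 14 mg/kg, and 674 and 586 after 18 mg/kg. All 5 groups overlapped, and the arrays numbered 1 were higher in 5 of 5 groups. The changes were 0.18 (SE 0.345), 0.24 and 0.15, none called. With the block the 95% intervals were -0.23 to 0.60 in wild type and -0.18 to 0.65 in A-CREB at 14 mg/kg. A change as large as the estimate for Egr1 in A-CREB, 1.58, lies outside the latter. Without the block the Nab2 intervals were wider, at -0.59 to 0.96 and -0.54 to 1.01. There the A-CREB interval of Nab2 overlapped that of Egr1, 0.91 to 2.24.

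In wild-type mice 0 of the 9 tested member probe sets were called by limma, where 0.0629% of all were called, and 6 had an unadjusted p below 0.05, as did 735 of all 27022. With the replicate block 2 were called (Egr2 1427683_at and Egr4), where 0.337% of all were, and 6 members and 2111 of all had an unadjusted p below 0.05. Leaving out A-CREB kainate 18 mg/kg replicate 1 or replicate 2 brought 3 calls in wild type, with both Egr2 probe sets (1427682_a_at with an adjusted p of 0.0375) and Egr4. The median change was 1.09 over the members and -0.04 over all probe sets.

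In A-CREB mice at 14 mg/kg 3 of 9 were called (both Egr2 probe sets and Egr4), where 0.181% of all were, and 5 with the block, where 0.733% were. Unadjusted p-values below 0.05 were found for 7 of 9 members and 1032 of all probe sets, or 8 and 2581 with the block. The median change was 1.58, against -0.03 over all. The 3 calls fell to 1 without either wild-type kainate array (Egr2 1427683_at with adjusted p = 0.0415 and 0.0354), and to 0 without any 1 of the 4 arrays compared, where the Egr2 change still lay between 3.60 and 3.81. Without wild-type saline replicate 1 or replicate 2 they fell to 2, since Egr2 1427682_a_at had an adjusted p of 0.0683 or 0.0595 by limma. They fell to 0 with a variance model without an intensity trend (smallest adjusted p by limma 0.105).

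At 18 mg/kg 1 of 9 was called (Egr2 1427683_at), where 0.0703% of all were, and 5 with the block, where 0.359% were. Unadjusted p-values below 0.05 were found for 5 of 9 members and 668 of all, or 6 and 2139 with the block. The median change was 1.25, against -0.001 over all. The call was lost without wild-type saline replicate 1, either wild-type kainate array, either A-CREB saline array or either A-CREB 14 mg/kg array, and 2 were called without A-CREB kainate 18 mg/kg replicate 1. The same call was lost without the intensity trend (adjusted p = 0.171 by limma) and with only the groups compared (0.115). The Egr2 change itself rested on which array at 18 mg/kg was kept. Without replicate 1 it was 4.35 for 1427683_at and 3.85 for 1427682_a_at, and without replicate 2 it was 2.61 and 1.86. Both A-CREB comparisons share their saline arrays, so their values stand side by side and do not support each other.

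**Figure D3:**
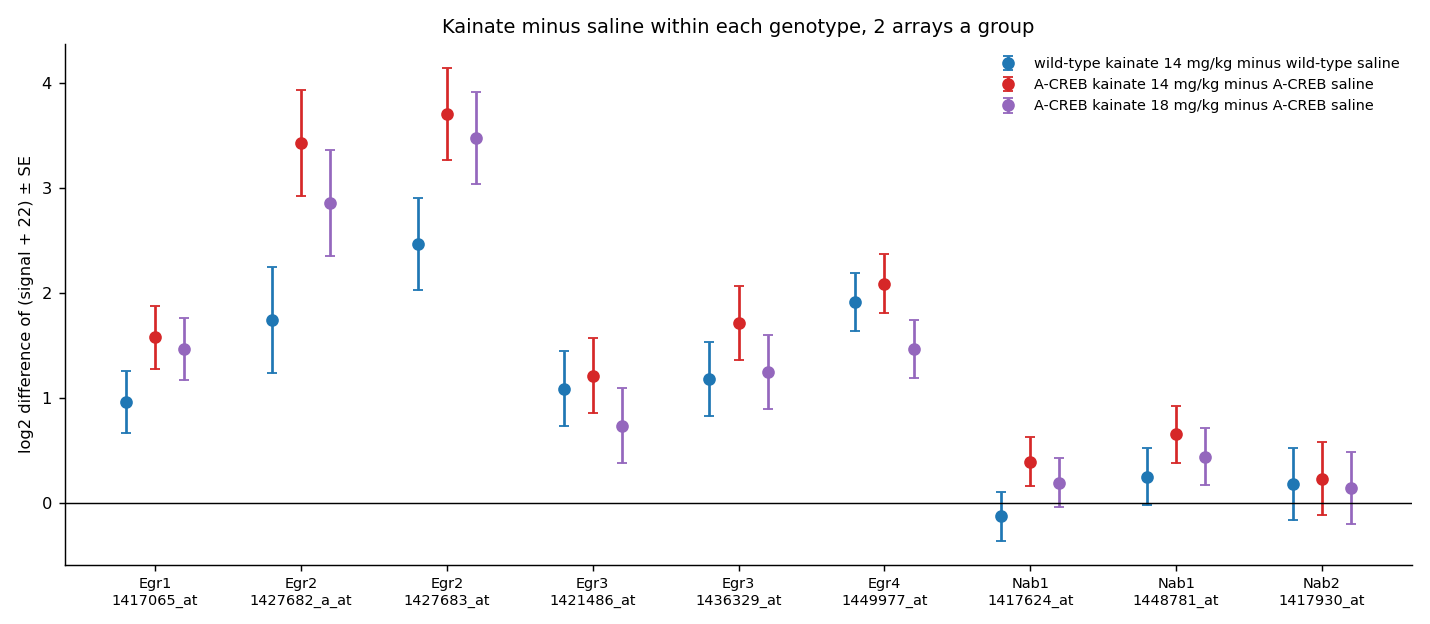
Kainate minus saline on the log2(signal + 22) scale for the 9 tested probe sets, as points with bars of 1 SE, for wild type (14 mg/kg) and A-CREB mice (14 and 18 mg/kg). The Egr2 probe sets reach 3.43 and 3.71 in A-CREB mice at 14 mg/kg, while the Nab probe sets stay between -0.12 and 0.66.

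After saline, A-CREB mice differed from wild type in no member by the test: 0 of 9 were called, where 0.0% of all were by limma and 0.0037% with the block. Unadjusted p-values were below 0.05 for 341 of all 27022 probe sets without the block and for 1382 with it. The differences were all negative, from -0.03 for Egr4 to -0.86 for Egr2 1427682_a_at, with a median of -0.40 over the members and -0.01 over all. Leaving out an array turned those of Egr3 1421486_at (to 0.18), Egr4 (to 0.07) and Nab2 (to 0.34) positive. For the lower Egr2 in A-CREB saline the 95% interval was -2.00 to 0.27 on 1427682_a_at. On 1427683_at the difference was -0.52 (-1.51 to 0.46). Egr1 was lower by 0.58 (95% interval -1.24 to 0.09), with groups that overlapped. With the block its unadjusted p was 0.00874 and its adjusted p 0.959 by limma.

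After 14 mg/kg the genotypes were compared directly, and again 0 of 9 were called, where 0.0% of all were, or 0.0037% with the block. Unadjusted, 273 and 1119 of all were below 0.05. Egr2 was higher in A-CREB mice by 0.72 (95% interval -0.27 to 1.70) and by 0.82 (-0.31 to 1.96) on its probe sets. Egr1, with a difference of 0.04 (-0.63 to 0.70), and Egr4, with 0.14 (-0.48 to 0.77), had intervals that leave room for differences of either sign.

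The test of whether the responses to 14 mg/kg differ, A-CREB minus wild type, gave 0 of 9 calls in either fit, where 0.0% of all probe sets were called. The estimate was positive for 9 of 9 probe sets, with a median of 0.52, against 0.003 over all. These probe sets share genes and arrays, and the share of positive estimates over all was not counted. Leaving out an array turned the estimate negative for Egr3 1421486_at (to -0.21), Egr4 (to -0.09) and Nab2 (to -0.43). This difference holds the genotype differences at saline, -0.86 and -0.52 for the Egr2 probe sets, as well as those after kainate, 0.82 and 0.72. At saline and after kainate they were -0.58 and 0.04 for Egr1, -0.41 and 0.12 for Egr3 1436329_at and -0.03 and 0.14 for Egr4. For Nab1 they were -0.31 and 0.21 on 1417624_at and -0.40 and -0.002 on 1448781_at. The largest was that of Egr2 1427682_a_at, at 1.69 (95% interval 0.08 to 3.29), with an unadjusted p of 0.0413 without the block and 0.013 with it, and an adjusted p of 1 by limma in both fits. By number it was 2.23 for the arrays numbered 1 and 1.14 for those numbered 2. Egr2 1427683_at gave 1.24 (-0.15 to 2.63), by number 1.28 and 1.20. Egr1 gave 0.62 (-0.33 to 1.56), Egr3 1436329_at 0.53 (-0.59 to 1.66) and Egr4 0.18 (-0.70 to 1.06). Egr3 1436329_at differed by 1.11 in number 1 and by -0.04 in number 2. Nab1 gave 0.52 (-0.22 to 1.26) on 1417624_at and 0.40 (-0.46 to 1.26) on 1448781_at, more than Egr4. With the block the intervals that left out 0 were those of Egr2 1427682_a_at (0.43 to 2.95), Egr2 1427683_at (0.11 to 2.38), Egr1 (0.05 to 1.19) and Nab1 1417624_at (0.06 to 0.99). Unadjusted p-values were below 0.05 for 1 of 9 members and 161 of all without the block, and for 4 and 818 with it.

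**Figure D4:**
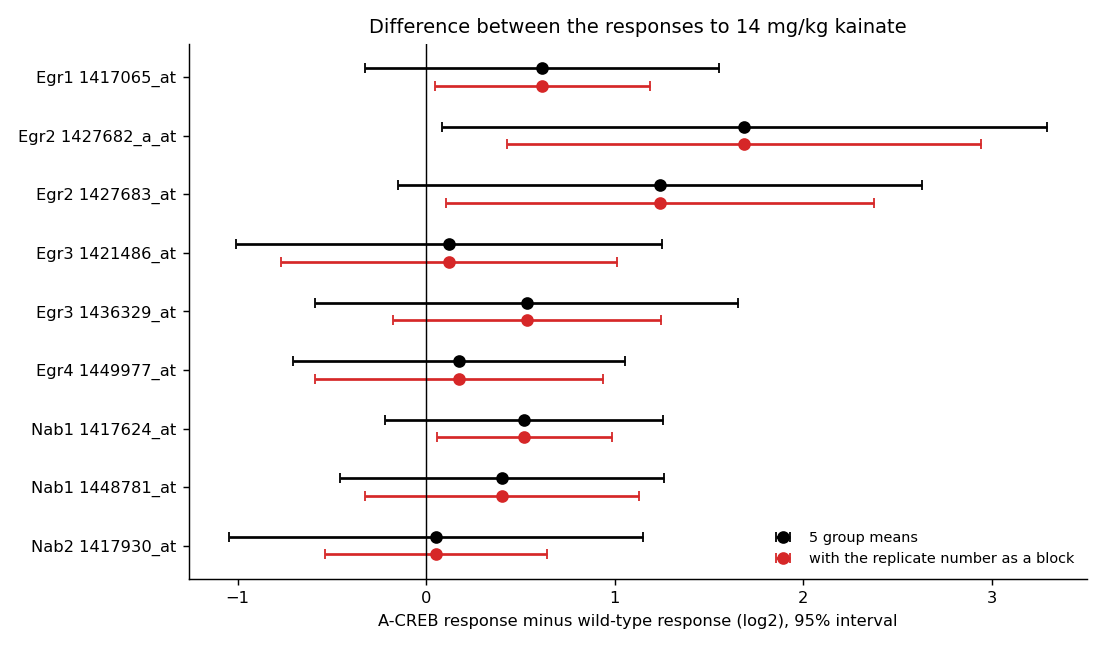
A-CREB response minus wild-type response to 14 mg/kg kainate (log2) with 95% intervals for the 9 tested probe sets, in black from the 5 group means and in red with the replicate number as a block. All points lie to the right of 0, and without the block only the interval of Egr2 1427682_a_at, 0.08 to 3.29, does not reach 0.

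Between the doses in A-CREB mice, 18 minus 14 mg/kg, 0 of 9 were called in either fit, where 0.0% of all were, with 134 of all below an unadjusted 0.05 and 672 with the block. The estimates were all negative, with a median of -0.23 against 0.02 over all. Leaving out an array turned several of them positive, up to 0.64 for Egr2 1427683_at. Egr4 had the smallest p, at -0.62 (95% interval -1.24 to -0.0003), with an unadjusted p of 0.0499 and an adjusted p of 1 by limma. With the block its interval was -1.16 to -0.08 and its unadjusted p by limma 0.0277, again without a call. The 2 arrays at 18 mg/kg disagreed. Number 1 lay below its 14 mg/kg counterpart by 1.70 and 1.17 on the Egr2 probe sets, by 1.11 and 0.83 on those of Egr3 and by 1.28 for Egr4, but by 0.15 for Egr1. Number 2 differed from its counterpart by 0.55 and 0.72 for Egr2, by 0.16 and -0.10 for Egr3, by 0.03 for Egr4 and by -0.07 for Egr1. Without A-CREB kainate 18 mg/kg replicate 1 the dose difference was 0.64 for Egr2 1427683_at, 0.06 for Egr3 1436329_at and -0.23 for Egr4. Of the kainate arrays, that array was the lowest in Egr2, Egr3 and Egr4 and the second highest in Egr1.

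**Figure D5:**
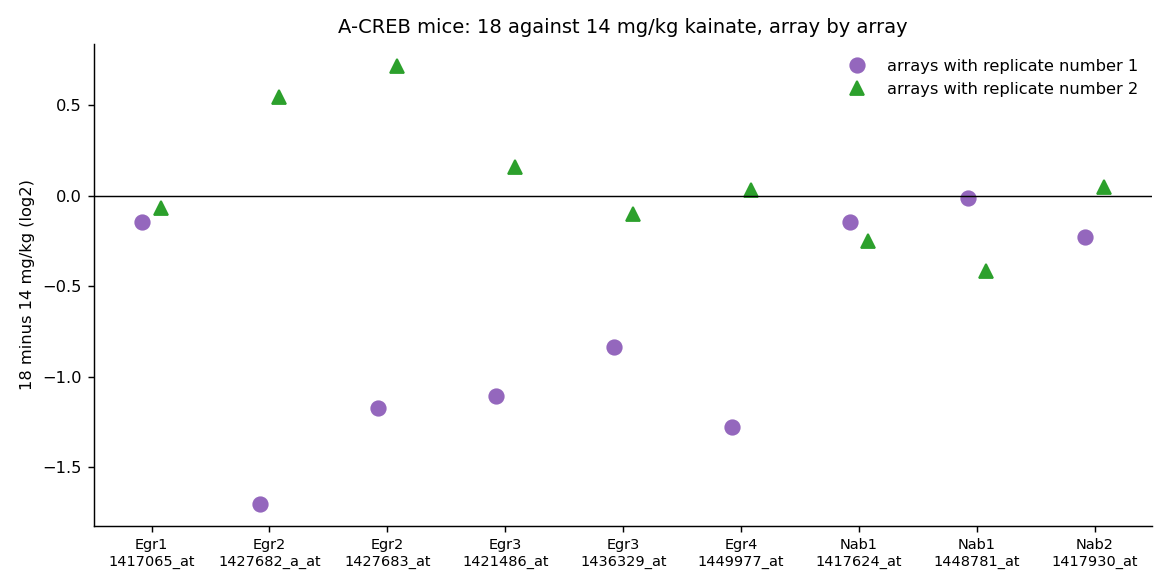
Difference between 18 and 14 mg/kg kainate in A-CREB mice (log2) for arrays of the same number, with circles for number 1 and triangles for number 2. Egr2, Egr3 and Egr4 lie between -0.83 and -1.70 for number 1 and between -0.10 and 0.72 for number 2.

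The order of the 5 groups by mean log2 signal was the same in part for all Egr probe sets. A-CREB at 14 mg/kg ranked highest and A-CREB saline lowest in each of them. For Egr1, Egr3 and Egr4 wild-type kainate ranked next, ahead of A-CREB at 18 mg/kg, and for Egr2 these exchanged places. Among the Egr probe sets, neighbouring kainate groups overlapped throughout, as did the saline groups except for Egr2. The saline groups of Nab1 1417624_at did not overlap either, with A-CREB lower. The gap that no Egr probe set bridged was that between the lowest kainate group and wild-type saline. It was smallest for Egr3 1421486_at, at 0.68, and largest for Egr2 1427683_at, at 2.47.

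Over the 10 arrays, which share their groups, the Egr probe sets followed each other at r of 0.693 (Egr1 with Egr3 1421486_at) to 0.983 (the 2 of Egr2). Egr1 followed Egr2 1427683_at at 0.868 and Egr4 at 0.863, while Egr4 followed Egr2 1427683_at at 0.954. Nab1 1448781_at followed Egr1 at 0.735, above the lowest value between Egr probe sets, and Egr4 at 0.602. Nab1 1417624_at followed the Egr probe sets at 0.165 (Egr1) to 0.462 (Egr3 1436329_at). Nab2 followed Egr1 at 0.6 and Egr3 1436329_at at 0.0398. Among 13242 other genes, each by its brightest probe set, those most like Egr1 were Arc (0.974), an activity-regulated synaptic gene, Nptx2 (0.956), which encodes a secreted pentraxin that clusters AMPA receptors, Arpp19 (0.941) and Slc25a25 (0.937). Most like Egr2 were Fbxo33 (0.989), Fosl2 (0.987), an AP-1 subunit, Nr4a1 (0.985), an immediate-early orphan nuclear receptor, and Rgs2 (0.984), which shortens G-protein signals. Most like Egr3 were Grasp (0.983), Slc2a1 (0.965), the glucose transporter of the blood-brain barrier, the kinase gene Pim1 (0.963) and Rheb (0.963), a small GTPase upstream of mTOR.

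Most like Egr4 were Fosb (0.981), an AP-1 subunit, Dusp4 (0.979), a MAP kinase phosphatase, Nr4a2 (0.977) and Mest (0.973). Fosb was higher by 3.88 in wild type and 4.58 in A-CREB at 14 mg/kg, and Nr4a2 by 1.89 and 2.08. The genes nearest Nab1, namely Nxn (0.942), Upp2 (0.936), Piezo1 (0.924) and Atg7 (0.916), differed by -0.18, -0.19, -0.15 and -0.04 after kainate in wild type and by 0.28, 0.29, 0.42 and 0.38 in A-CREB mice at 14 mg/kg. Those nearest Nab2 were Ube2ql1 (0.955), Slc17a6 (0.942), the vesicular glutamate transporter of subcortical neurons, Cerk (0.936) and Smad1 (0.932).

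The genes around the family were read from lists of known partners and targets, each gene by its brightest tested probe set. By limma without the block, none of the 7 lists held a call in the 3 kainate comparisons. Of all 13248 genes, 14, 35 and 16 were called upwards there and 0 downwards. With the block 57, 115 and 56 of all genes were called upwards and 3, 9 and 0 downwards. Of the genes upstream of Egr transcription 12 of 16 were tested, with medians of -0.07, -0.24 and -0.24 against -0.05, -0.02 and 0.002 over all genes. Crem, a CREB relative whose inducible product represses cAMP-driven genes, differed by 0.83, 1.17 and 1.08, and was called in A-CREB at 14 mg/kg with the block (adjusted p = 0.0322). Map2k1, a kinase above ERK, differed by 0.44, -0.07 and -0.28, the coactivator Crtc1 by -0.34, -0.48 and -0.57, and the SRF coactivator Mrtfb by -0.15, -0.21 and -0.20. Creb1, the gene of the protein that A-CREB blocks, differed by -0.09, -0.11 and -0.01.

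Of 12 reported Egr targets in neurons, all tested, Arc differed by 1.99, 2.99 and 2.73 and was called in A-CREB at both doses with the block (adjusted p = 0.00971 and 0.0283). The other 11 were called in neither fit. Th, the rate-limiting enzyme of dopamine synthesis, differed by 0.74, 0.97 and 0.47, the secretase gene Bace1 by -0.26, 0.00 and -0.08, and the glucocorticoid receptor gene Nr3c1 by -0.34, -0.16 and -0.08. The medians of the list were -0.06, -0.18 and -0.11. Of 15 reported targets in other cells 9 were tested and none was called in either fit. Among them the cell cycle inhibitor Cdkn1a differed by 0.76, 0.88 and 0.53, the adhesion molecule gene Icam1 by 0.57, 0.69 and 0.49, fibronectin (Fn1) by -0.29, 0.20 and 0.11, and Ptges by 0.59, -0.12 and 0.30.

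Of 8 Egr2 targets in Schwann cells 4 were tested, none called in either fit. Pmp22 differed by 0.38, 0.68 and 0.51, Mag by -0.27, 0.09 and -0.07, Mbp by 0.18, 0.11 and 0.01, and Gjb1 by -0.07, 0.27 and 0.32. These genes are also made by oligodendrocytes, in part, and the summed signal of 3 oligodendrocyte markers, Mag among them, moved with the groups. It was 19758 and 20216 in A-CREB saline, 21784 and 26101 after 14 mg/kg and 20609 and 24105 after 18 mg/kg, so that A-CREB saline lay below every A-CREB kainate array. It also lay below wild-type saline (22954 and 24153), which overlapped with wild-type kainate (22192 and 24994). The part of this in the values of Pmp22, Gjb1, Mag and Mbp was not tested. The NuRD complex, through which Nab proteins repress, had 13 of 13 genes tested and none called, with medians of -0.10, -0.19 and -0.15. Its members with the smallest p in wild type were the histone-binding Rbbp7 (0.27, 0.40 and 0.25), the deacetylase genes Hdac2 (-0.21, -0.22 and -0.13) and Hdac1 (0.25, -0.09 and -0.07), and the helicase gene Chd4 (-0.46, -0.19 and -0.71).

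Of 6 zinc-finger relatives that bind GC-rich sites 5 were tested and none called. Sp4 differed by -0.49, 0.19 and -0.48, Maz by -0.35, -0.46 and -0.52, Sp3 by 0.10, -0.25 and -0.39, and Sp1 by -0.13, -0.05 and 0.04. All 4 coactivators of Egr proteins were tested and none was called. The acetyltransferase genes Crebbp (-0.45, -0.32 and -0.35) and Ep300 (-0.40, -0.36 and -0.25), Hcfc1 (-0.31, -0.29 and -0.19) and Med1 (-0.07, -0.20 and -0.19) lay below 0 in all 3 comparisons, with a median of -0.36 in wild type. In each of the 3 kainate comparisons the largest differences among the tested genes of the 7 lists were those of Arc and Crem.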

How the data were processed

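Hippocampal RNA was measured on 10 Affymetrix Mouse430_2 arrays. The deposited values are intensity on a linear scale, which the submitters' processing notes credit to MAS5 in GCOS, with versions and settings not given in the sources used here. The 2% trimmed mean was 500.002 or 500.003 on every array, so the deposited intensity values had been scaled. The 64 control probe sets were left out. Gene names came from the platform annotation, in which 34945 probe sets name 1 gene, 932 several and 9160 none.

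Tests used log2(signal + 22), which lowers the fold of dim genes. The pseudocount of 22 is the rounded percentile 20 of all signals. Group means were fitted with limma 3.58.1 in R 4.3.3 (eBayes with an intensity trend, 5 residual degrees of freedom) over 27022 probe sets, for 7 comparisons, two-sided. The labels do not say what the replicate numbers mark. They were taken to pair arrays because the deviations of same-numbered arrays correlated at 0.52 to 0.631 in all 10 pairs of groups; the fit with this block has 4 residual degrees of freedom. On simulated data of the wild-type comparison over 27022 probe sets, with 200 changed, 12% of 1-unit and 51% of 2-unit log2 changes were found. False calls numbered 3. These shares hold for that setting only.

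All member probe sets are named, with the 4 genes most correlated with each member, up to 4 genes of each list by smallest p in wild type, and Creb1. Members, lists and tests were chosen with earlier results of these data known. Alternatives were pseudocounts of 5.5 and 88, no filter and the upper 40%, quantile normalization, no intensity trend, robust variance, 1 probe set per gene, only the groups compared, leaving out each array, and the replicate block. Promoters and motif matches came from RefSeq (Python 3.11.15). Promoter windows of Egr1 and Egr3 were not used here.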

Additional observations from a re-analysis of the deposited data

How the results depend on the processing

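Over 9 probe sets and 7 comparisons no called change turned its sign under any alternative. Changes without a call turned theirs in 37 of 630 values when leaving out an array and in 1 of 63 after quantile normalization. In the wild-type kainate comparison the 0 calls among members became 1 with 1 probe set per gene, 2 with only the groups compared, 2 with the replicate block, and 0 to 3 when leaving out an array. For A-CREB at 14 mg/kg the 3 calls became 0 without the intensity trend, 5 with the replicate block, and 0 to 3 when leaving out an array. For A-CREB at 18 mg/kg the 1 call became 0 without the intensity trend, 0 with only the groups compared, 5 with the replicate block, and 0 to 2 when leaving out an array. The cause was not tested. Where an array of a compared group is left out, its lone partner is assumed to vary like the other groups. In the other 4 comparisons no member was called in any setting. The replicate block, which pairs the arrays by number, changed no other call of a member. A pseudocount of 88 lost the call of Egr2 1427682_a_at in A-CREB at 14 mg/kg. Over all probe sets the calls of the 3 kainate comparisons went from 17, 49 and 19 to 91, 198 and 97 with the block and to 3, 3 and 2 without the intensity trend. They were 24, 41 and 33 with 1 probe set per gene, 25, 65 and 2 with only the groups compared, 10 in wild type after quantile normalization and 12 at 18 mg/kg without a filter. Leaving out an array gave 3 to 40, 2 to 64 and 2 to 48.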
